A study of Mus musculus with 8 samples.

Results

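The heat shock and DNAJ chaperones were examined in liver RNA from adult male mice that lacked the mRNA-decay factor Zfp36l1 in hepatocytes and from their controls. Members were taken by symbol: the HSP70 (Hspa), small heat shock protein (Hspb), HSP90 and J-protein (Dnaja, Dnajb, Dnajc) genes, Hspd1, Hspe1 and Hsph1, and the heat shock factors Hsf1 and Hsf2. The rule found 74 of the 25239 genes in the count table. Of these, 42 were placed in the cytosol and nucleus, 14 in the endoplasmic reticulum (ER), 8 in the mitochondrion and 8 on vesicles or at a location that is unsure, and 2 were heat shock factors. The knockout group had 4 livers of Zfp36l1 fl/fl Alb-Cre+ mice, in which Cre recombinase is driven by the promoter of albumin, a gene of hepatocytes. The control group had 4 livers titled fl/fl, with no Cre named, and the genotype label calls them WT. The loxP-flanked alleles were thus shared by both groups, and the deletion and the Cre transgene differed together. The labels give adult male mice with no exact age and no treatment, number the libraries 1 to 4 in each group, and do not say whether each came from a separate mouse, so the spread behind a p-value may be partly technical.

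Chaperones help proteins to fold and hold unfolded chains from clumping. In the cytosol HSP70 takes up unfolded chains with the help of J-proteins, which bring substrates and start ATP hydrolysis, HSP110 acts as the factor that exchanges the nucleotide, and HSP90 completes the folding of kinases and receptors. The ER holds its own HSP70 (Hspa5, BiP) and HSP90 (Hsp90b1, GRP94), and the mitochondrion has an HSP70 (Hspa9, mortalin) and a chaperonin made of Hspd1 (HSP60) and Hspe1 (HSP10). Under heat or other protein-damaging stress HSF1 binds heat shock elements in the promoters of the cytosolic genes, while the unfolded protein response raises the ER genes through ER stress elements. Hepatocytes secrete much of the plasma's protein and keep these chaperones at high levels.

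Promoter sequence is shown for some of the members that hold the elements named after the 2 responses. They were chosen with their levels known, and a link between the elements and the levels was not tested. RefSeq promoters of build GRCm38.p6, from 250 bases before to 50 bases after each start, were matched by symbol for 59 of the 74 members. A pair of inverted heat shock units (GAANNTTC or TTCNNGAA, which read the same on both strands) was found for 16 of the 59 (27.1%), against 17.0% of 27025 genes with a promoter. The form with 3 alternating units spaced by 2 bases, which contains the shorter form, was found for Dnajb6, Hspd1, Hspe1 and Hsph1, 6.78% of members against 0.662% of all genes. The ER stress element, CCAAT followed after 9 bases by CCACG on either strand, was found for Dnajc3, Hsp90b1 and Hspa5, 5.08% of members against 0.137% of all genes. These 3 are ER members, and 0 of the 36 cytosolic members with a promoter had that element. A match describes the letters and is not a measured binding site. The windows shown for Hsph1, Dnaja1, Hspe1 and Hspa5 touch an annotated exon. The sequences are written 5′ to 3′ along the gene's own strand, and capitals mark the heat shock units in the first set of lines. Hspa1a and Hspa1b share the same 60 bases, at chr17:34972227-34972286 and chr17:34959309-34959368, both on the minus strand. Hspb1 lies at chr5:135887796-135887855 (plus), Hsph1 at chr5:149636351-149636380 (minus), Dnaja1 at chr4:40722333-40722362 (plus) and Hspe1 at chr1:55088055-55088084 (plus).
Hspa1a: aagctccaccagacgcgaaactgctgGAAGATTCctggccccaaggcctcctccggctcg
Hspb1: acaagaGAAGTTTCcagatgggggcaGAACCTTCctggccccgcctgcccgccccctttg
Hsph1: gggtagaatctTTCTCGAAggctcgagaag
Dnaja1: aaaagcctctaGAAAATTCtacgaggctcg
Hspe1: tccgTTCTAGAACCTTCCGGAAggccccgc

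Hspe1 and Hspd1 are transcribed away from each other, and the element in the Hspe1 line is the one found for Hspd1 on the opposite strand. Capitals in the next set mark the ER stress element, which reads backwards in Hsp90b1. Hspa5 lies at chr2:34772019-34772048 (plus), Dnajc3 at chr14:118937806-118937865 (plus) and Hsp90b1 at chr10:86705513-86705572 (minus).
Hspa5: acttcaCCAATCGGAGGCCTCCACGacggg
Dnajc3: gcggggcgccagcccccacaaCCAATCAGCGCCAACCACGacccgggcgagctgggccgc
Hsp90b1: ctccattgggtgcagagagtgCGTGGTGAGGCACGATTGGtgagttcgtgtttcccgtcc

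The targeted gene was low in every library labelled knockout. Zfp36l1 had 76.9, 57.9, 67.2 and 58.3 CPM (library-scaled counts, with libraries put on 1 scale by the trimmed mean of M-values, TMM) in knockout libraries 1 to 4, against 263, 237, 324 and 212 CPM in control libraries 1 to 4. The groups did not overlap, and the knockout mean was 25.1% of the control mean (exact two-sided permutation test over 70 assignments, p = 0.0286, the smallest it can give). Libraries held 104842873 to 140582588 counts. The members together took 0.787%, 0.991%, 0.744% and 0.740% of the counts in the knockout libraries and 0.735%, 1.31%, 0.649% and 0.879% in the control libraries. Library 2 of each group thus had the highest share in its group, and results are given below with all 8 libraries and, where stated, without both libraries numbered 2, a setting chosen after seeing the data.

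As a group, chaperone transcripts had a median log2 fold change close to that of all tested genes, and 1 member passed the test. Of the 74 members, 66 had enough counts to be tested. With edgeR's quasi-likelihood test and Benjamini-Hochberg adjustment over all 14861 tested genes, at a threshold of 0.05, 0 of the 66 members were higher in the knockout and 1, Dnajc28, was lower. Among all tested genes 801 (5.39%) were called, 521 (3.51%) higher and 280 (1.88%) lower in the knockout. An unadjusted p under 0.05 was found for 8 members (12.1%), against 21.5% of all tested genes. DESeq2 called 2 of the 66 members higher, where it called 6.82% of all tested genes higher, and limma voom with quality weights called 2 higher, where it called 5.59%. A stricter filter called 1 member higher against 4.65% of all genes, and scaling by total counts alone called 2 lower against 9% of all genes. Knockout and control libraries did not overlap for 5 of the 66 members (7.58%), namely Dnajc28, Hspa2, Dnajb6, Dnajc7 and Dnajc14, against 15.1% of all tested genes. The median log2 fold change of knockout over control was −0.02 for the members and −0.01 for all tested genes. By compartment the medians were −0.06 for 36 cytosolic members, 0.04 for 14 ER members, 0.02 for 8 mitochondrial members, −0.01 for 6 members of vesicles or unsure location and 0.05 for the 2 heat shock factors. The 95% interval of the log2 fold change lay within ±0.5 for 39 of the 66 members (59.1%, against 50.4% of all tested genes) and within ±1 for 54 (81.8%, against 80.2%). Among cytosolic members 41.7% lay within ±0.5 and 69.4% within ±1. The shares were 71.4% and 92.9% for ER members and 100% at both limits for mitochondrial members. For members with wide intervals a change in either direction was not resolved. The block for the replicate number narrowed the error where library 2 stood apart in both groups: the SE was 0.13 with it and 0.60 without it for Dnajb1, 0.11 and 0.41 for Dnajb9, 0.16 and 0.43 for Hspa8, and 0.09 and 0.27 for Dnajb4. None of these 4 passed with the block, with log2 fold changes of −0.22 (adjusted p = 0.326), 0.31 (adjusted p = 0.144), 0.02 (adjusted p = 0.959) and 0.02 (adjusted p = 0.893). In bulk liver RNA, fewer cells of a type and less RNA per cell cannot be told apart.

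**Figure D1:**
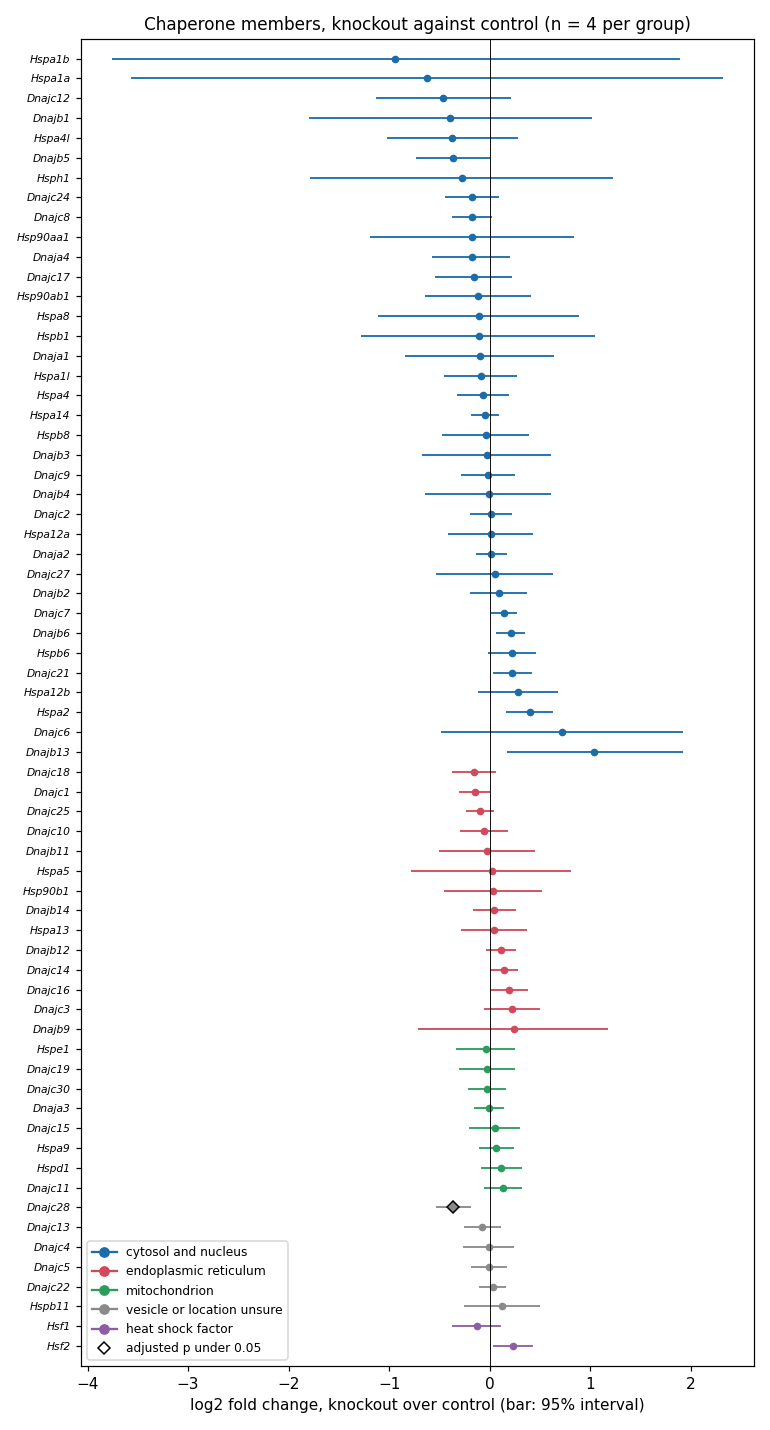
Log2 fold change of knockout over control (x axis) for the 66 tested members, grouped by compartment (colour); the bar is the 95% interval from the edgeR fit with n = 4 libraries per group. Dnajc28, at −0.36, is the member with adjusted p under 0.05, and the widest intervals are those of Hspa1a and Hspa1b.

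Levels of different genes were compared per length, as RPKM. The most abundant members were the ER chaperone Hspa5, with 492 ± 121 RPKM in knockout and 486 ± 240 RPKM in control livers (mean ± SD, n = 4 each, as for all values in this form), and the constitutive cytosolic chaperones. Hsp90ab1, the HSP90 form made in unstressed cells, had 446 ± 83 and 483 ± 174 RPKM in knockout and control livers. Hspa8, the constitutive HSP70, had 443 ± 155 RPKM in knockout and 478 ± 289 RPKM in control livers. Hsp90b1 was at 384 ± 44.3 RPKM in knockout and 376 ± 123 RPKM in control livers. The ranges of mean ± SD of these 4 genes overlapped, and their order within each library was not compared. Next came the mitochondrial Hspa9, at 223 ± 13.7 RPKM in knockout and 214 ± 15 RPKM in control livers, and Hspd1, at 208 ± 14.1 RPKM in knockout and 192 ± 21.0 RPKM in control livers. Hsp90aa1, the stress-inducible HSP90, was lower, at 94.4 ± 24.8 RPKM in knockout and 107 ± 72.1 RPKM in control livers. The ninth-ranked member was Dnajc22, a membrane J-protein, with 82.5 ± 3.59 RPKM in knockout and 81.0 ± 3.07 RPKM in control livers. At the other end, 8 members were not tested. Dnajb7, Hspb2, Hspb7 and Hspb9 had 0 to 15 counts per library. Dnajb8, Dnajc5b, Dnajc5g and Hspb3 were at 0 in all 8 libraries, which allows up to 0.0277 CPM in the shallowest library if 3 counts are taken as the limit of a count of 0, for counting error only.

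The inducible HSP70 genes varied more between libraries than any other tested members, and the variation ran with the library number and not with the genotype. Hspa1a and Hspa1b, the stress-inducible HSP70 genes, lie next to each other on chromosome 17 (34969190 to 34972156 and 34956436 to 34959238, minus strand, mm10), and their coding sequences were 99.43% identical, so counting may have split their reads and their sum is given too. Hspa1b had 16.1, 69.8, 11.6 and 8 CPM in knockout libraries 1 to 4, against 13.8, 167, 7.70 and 12.6 CPM in control libraries 1 to 4. Hspa1a had 1.14, 7.04, 1.21 and 0.713 CPM in the knockout libraries and 0.979, 13.2, 0.387 and 0.944 CPM in the control libraries. In both genes library 2 was far above the others in each group, control 2 was highest, and the groups overlapped. The sum of the pair was 17.3, 76.8, 12.9 and 8.72 CPM in the knockout libraries and 14.8, 181, 8.09 and 13.5 CPM in the control libraries. Library 2 was 5.93 times the mean of the other 3 knockout libraries and 14.9 times the mean of the other 3 control libraries. Knockout over control, the log2 fold change of the sum was −0.91 (SE 1.21, edgeR adjusted p = 0.711), and an exact permutation test gave p = 0.8. Fitted with a block that compares same-numbered libraries, it was −0.25 (SE 0.37, edgeR adjusted p = 0.720). It was 1.25 (SE 0.8, adjusted p = 0.458) without control 2, −2.07 (adjusted p = 0.420) without knockout 2 and 0.10 (adjusted p = 0.891) without both, so its direction rested on these libraries. For Hspa1b alone it was −0.94 (SE 1.2, adjusted p = 0.699), and for Hspa1a −0.62 (SE 1.26, adjusted p = 0.817), while the block gave −0.28 for Hspa1b and 0.05 for Hspa1a.

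**Figure D2:**
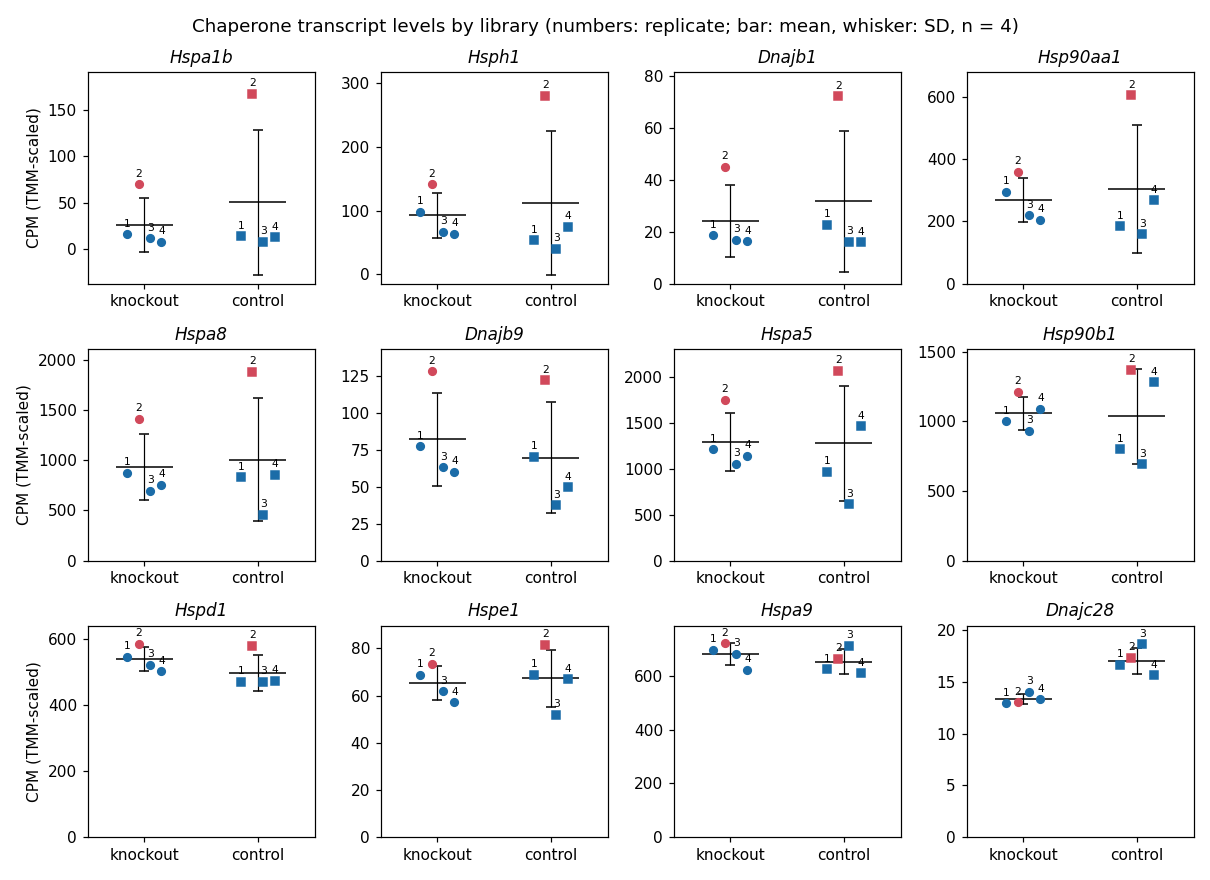
CPM (y axis, TMM-scaled) of 12 members in the 4 knockout libraries (circles, left) and the 4 control libraries (squares, right), labelled by replicate number, with libraries numbered 2 in red; bars are means and whiskers SD, n = 4. Library 2 stands above the rest in both groups for Hspa1b, Dnajb1, Hspa8 and Hspa5, while Hspa9 shows little spread and Dnajc28 separates the groups.

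The partners of HSP70 in the stress response showed the same library as the highest. Hsph1, the HSP110 nucleotide exchange factor, had 97.7, 141, 66.9 and 63.8 CPM in the knockout libraries and 53.4, 280, 40.2 and 74.9 CPM in the control libraries, for a log2 fold change of −0.28 (SE 0.65, adjusted p = 0.841). Dnajb1 (HSP40), the J-protein that works with inducible HSP70, had 18.6, 45.1, 16.9 and 16.4 CPM in the knockout libraries and 22.8, 72.2, 16.2 and 15.9 CPM in the control libraries (log2 fold change −0.39, SE 0.60, adjusted p = 0.753). The remaining libraries of Dnajb1 lay close together, at 16.4 to 18.6 CPM in the knockout and 15.9 to 22.8 CPM in the control. Hspa8 had 873, 1410, 692 and 752 CPM in the knockout libraries, against 831, 1880, 457 and 857 CPM in the control libraries (log2 fold change −0.11, SE 0.43, adjusted p = 0.906). Dnaja1, a farnesylated J-protein that serves Hspa8, had 187, 251, 183 and 167 CPM in the knockout libraries and 169, 368, 122 and 187 CPM in the control libraries (log2 fold change −0.10, SE 0.32, adjusted p = 0.883). Hspa8 and Dnaja1 therefore differed more between libraries of the control group than between the group means.

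Both cytosolic HSP90 genes followed, with smaller ratios for the constitutive form. Hsp90aa1 had 294, 358, 220 and 205 CPM in the knockout libraries and 184, 604, 159 and 268 CPM in the control libraries (log2 fold change −0.18, SE 0.44, adjusted p = 0.851). Hsp90ab1 had 1120, 1410, 992 and 945 CPM in the knockout libraries and 941, 1850, 914 and 1140 CPM in the control libraries (log2 fold change −0.12, SE 0.23, adjusted p = 0.812). Library 2 over the mean of its group's other libraries was 1.49 in the knockout and 2.97 in the control for Hsp90aa1, and 1.38 in the knockout and 1.85 in the control for Hsp90ab1. Of the small heat shock proteins, which hold unfolded chains without ATP, Hspb1 (HSP25) had 8.27, 13.9, 8.04 and 4.01 CPM in the knockout libraries and 6.90, 18.5, 5.11 and 6.44 CPM in the control libraries (log2 fold change −0.11, SE 0.50, adjusted p = 0.918). Hspb8, which works with the co-chaperone BAG3 in selective autophagy, was the most abundant small heat shock protein transcript per length, at 61.2 ± 7.04 RPKM in knockout and 62.9 ± 17.9 RPKM in control livers. Groups overlapped in Hsp90aa1, Hsp90ab1, Hspb1 and Hspb8.

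Other cytosolic members did not pass the edgeR test. The largest fold change of any tested member was that of Dnajb13, a J-protein of sperm flagella and cilia that was close to silent here, with 0.157, 0.236, 0.202 and 0.218 CPM in the knockout libraries and 0.0554, 0.0553, 0.115 and 0.164 CPM in the control libraries. The groups overlapped, and the log2 fold change was 1.04 (95% interval 0.17 to 1.92, adjusted p = 0.159). Dnajc6, the auxilin that uncoats clathrin vesicles, came next at 0.72 (95% interval −0.48 to 1.92, adjusted p = 0.476), also from a low level of 0.116 ± 0.082 CPM in knockout and 0.0703 ± 0.0263 CPM in control livers. Hspa2, an HSP70 gene best known from the testis, was at 5.37, 5.01, 4.93 and 5.49 CPM in the knockout libraries and 3.82, 3.98, 3.60 and 4.41 CPM in the control libraries. All 4 knockout libraries exceeded all 4 control libraries, with a log2 fold change of 0.40 (SE 0.11), and the adjusted p from edgeR was 0.0613, short of the threshold. DESeq2 gave 0.41 with adjusted p = 0.00288 and limma voom 0.38 with adjusted p = 0.0392. Dnajb6, a J-protein that keeps aggregation-prone proteins soluble, averaged 46.5 ± 2.42 CPM in knockout and 40.3 ± 1.87 CPM in control livers (log2 fold change 0.21, SE 0.06, edgeR adjusted p = 0.101), and DESeq2 gave adjusted p = 0.0333. Dnajc7, which binds both HSP70 and HSP90, averaged 53.4 ± 1.38 CPM in knockout and 48.3 ± 1.91 CPM in control livers (log2 fold change 0.14, adjusted p = 0.186). Exons of Dnajb6 and Dnajc7, and of Dnaja1, Dnajc14 and Hsp90b1, overlap a gene on the opposite strand, and the strand setting of the counts is not given in the sources used here. Dnajc12, a J-protein that serves the aromatic amino acid hydroxylases, had 7.59, 5.31, 5 and 12.3 CPM in the knockout libraries and 9.86, 8.84, 8.76 and 14.1 CPM in the control libraries. In each of the 4 numbers the knockout library was below its control, though the groups overlapped. Knockout over control, the change was −0.46 on the log2 scale (SE 0.30, edgeR adjusted p = 0.411), and with the replicate number as a block it was −0.53 with adjusted p = 0.0428. The block called 2.52% of all tested genes lower, and among the members Dnajc12 and Dnajc28.

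**Figure D3:**
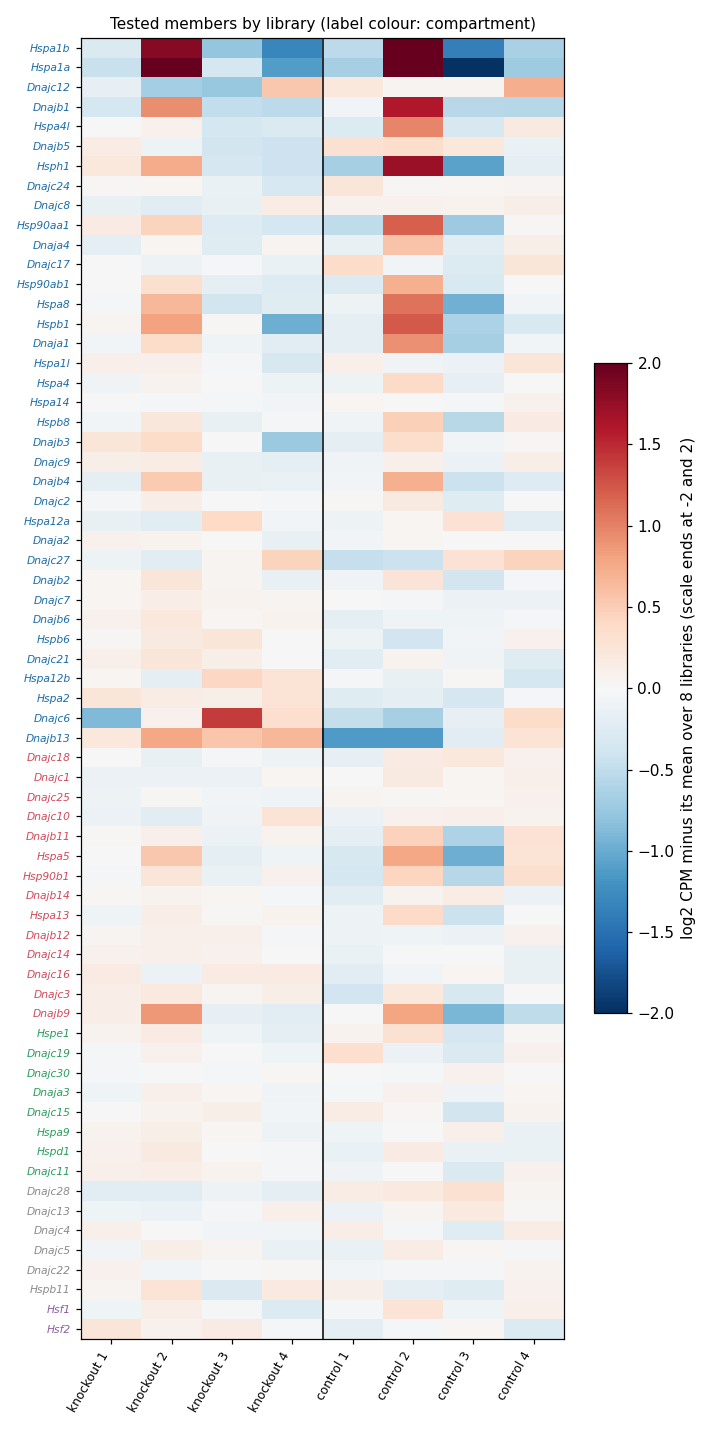
Log2 CPM of the 66 tested members (rows, label colour by compartment) in each library (columns, knockout left of control), as the difference from the gene's mean over 8 libraries, with the colour scale ending at −2 and 2. The columns knockout 2 and control 2 are dark red for Hspa1a and Hspa1b and red for Dnajb1, Hsph1, Hspa8, Hspb1 and Dnajb9, and the mitochondrial rows are pale throughout.

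In the ER, none of the 14 members passed the test, and the adjusted p from edgeR was 0.235 or more. Hspa5, the ER's HSP70 and the main sensor partner of the unfolded protein response, had 1210, 1750, 1050 and 1140 CPM in the knockout libraries and 965, 2060, 613 and 1460 CPM in the control libraries (log2 fold change 0.02, SE 0.35, adjusted p = 0.985). Its control libraries spread more than its knockout libraries, with control 3 lowest and control 2 highest. Hsp90b1 (GRP94), which folds secreted and membrane proteins, had 1000, 1210, 932 and 1090 CPM in the knockout libraries and 800, 1370, 692 and 1280 CPM in the control libraries (log2 fold change 0.03, SE 0.22, adjusted p = 0.943). Dnajb9 (ERdj4), which helps BiP to bind and silence the stress sensor IRE1, had 77.3, 128, 63.0 and 60.2 CPM in the knockout libraries and 70.2, 122, 37.3 and 49.5 CPM in the control libraries (log2 fold change 0.24, SE 0.41, adjusted p = 0.781). Library 2 was highest in both groups and of like size in them, and the knockout library exceeded the control library in each of the 4 numbers. Dnajb11 (ERdj3), which delivers unfolded chains to BiP, had 99.7, 106, 90.6 and 103 CPM in the knockout libraries and 85.8, 136, 64.3 and 120 CPM in the control libraries (log2 fold change −0.03, SE 0.21, adjusted p = 0.956). Dnajc3 (p58IPK), an inhibitor of the kinase PERK, had 368, 384, 349 and 365 CPM in the knockout libraries and 257, 388, 270 and 340 CPM in the control libraries (log2 fold change 0.22, SE 0.13, adjusted p = 0.338). Control 2 was the highest of the 8 libraries for Hspa5, Hsp90b1, Dnajb11 and Dnajc3, and knockout 2 for Dnajb9. Dnajc14, a J-protein of the ER membrane, averaged 53.4 ± 1.58 CPM in knockout and 48.5 ± 2.70 CPM in control livers with no overlap, with knockout 4 at 51.1 CPM next to control 2, also at 51.1 CPM when rounded (log2 fold change 0.14, adjusted p = 0.235).

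The mitochondrial members varied little, within groups and between them. All 8 had a 95% interval within ±0.5, and 0 of them had a within-group SD of log2 CPM over 0.5, against 9 of 36 cytosolic and 2 of 14 ER members, 0 of the 6 members of vesicles or unsure location and 14% of all tested genes. Hspa9 (mortalin), the matrix HSP70 that pulls proteins through the import pore, had 696, 720, 682 and 622 CPM in the knockout libraries and 624, 662, 711 and 609 CPM in the control libraries (log2 fold change 0.06, SE 0.08, adjusted p = 0.694). Hspd1 (HSP60) had 546, 585, 520 and 501 CPM in the knockout libraries and 469, 578, 469 and 472 CPM in the control libraries (log2 fold change 0.11, SE 0.09, adjusted p = 0.515). Hspe1 (HSP10), its lid, had 68.7, 73.4, 61.8 and 57.1 CPM in the knockout libraries and 68.9, 81.5, 51.9 and 66.9 CPM in the control libraries (log2 fold change −0.04, SE 0.13, adjusted p = 0.876). The exons of this divergent pair overlap, so reads at their shared start cannot be assigned without strand. Dnaja3 (TID1), the main J-protein of the matrix, had 115, 131, 126 and 116 CPM in the knockout libraries and 119, 130, 116 and 126 CPM in the control libraries (log2 fold change −0.01, SE 0.07, adjusted p = 0.952). The intervals ran from −0.11 to 0.24 for Hspa9, −0.09 to 0.32 for Hspd1 and −0.16 to 0.14 for Dnaja3.

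Dnajc28 was the member that passed the test. It encodes a J-protein whose substrates are little known, and lies on chromosome 16 (91614254 to 91619026, minus strand, mm10) with no exon shared with another gene of the table. It had 12.9, 13, 14 and 13.3 CPM in the knockout libraries and 16.6, 17.3, 18.6 and 15.6 CPM in the control libraries. Every knockout library lay below every control library, with a log2 fold change of −0.36 (SE 0.08, 95% interval −0.53 to −0.19, edgeR adjusted p = 0.0289, with the replicate block 0.0347). The adjusted p was above the threshold without control 1 (0.0672), control 2 (0.0698), knockout 1 (0.0988), knockout 2 (0.0737), knockout 3 (0.0695) or knockout 4 (0.0636), and below it without control 3 (0.0378) or control 4 (0.0328). Without both libraries numbered 2 the log2 fold change was −0.33 with adjusted p = 0.142. With 1 lower member of 66 tested, the share was near the 1.88% of all genes called lower.

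The heat shock factors did not pass the test. Hsf1, the master activator of the heat shock response, had 17.1, 19.8, 17.6 and 15 CPM in the knockout libraries and 17.7, 21.8, 17.1 and 19.5 CPM in the control libraries (log2 fold change −0.13, SE 0.11, adjusted p = 0.522). Library 2 was again the highest in each group, by 1.2 times the mean of the others in the knockout and 1.21 times in the control. Hsf2, which forms mixed trimers with HSF1 and acts in development, had 34.3, 30.6, 32.3 and 28.3 CPM in the knockout libraries and 25.1, 28.4, 29.6 and 23.9 CPM in the control libraries (log2 fold change 0.23, SE 0.09, edgeR adjusted p = 0.178). The groups of Hsf2 overlapped, since knockout 4 lay below controls 2 and 3, and limma voom with quality weights gave 0.31 with adjusted p = 0.0414.

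Among the members, a pattern by library number was thus seen in both groups. For 29 of the 66 tested members (43.9%) the libraries numbered 2 were the highest of their group in both groups, against 13.2% of all tested genes. For the numbers 1, 3 and 4 the shares were 1.52%, 4.55% and 6.06% of members, against 4.52%, 8.10% and 9.32% of all tested genes. These 29 included 17 of 36 cytosolic, 7 of 14 ER and 3 of 8 mitochondrial members, Hsf1 and Dnajc5. Library 2 was over 1.5 times the mean of its group's other libraries in both groups for 9 members (13.6%), against 1.29% of all tested genes. In order of the control ratio they were Hspa1a (6.89 in the knockout and 17.1 in the control), Hspa1b (5.85 in the knockout and 14.7 in the control), Hsph1 (1.86 in the knockout and 4.99 in the control) and Dnajb1 (2.61 in the knockout and 3.95 in the control). Hspb1, Hspa8, Dnajb9, Hspa5 and Dnajb4 followed, with ratios of 1.55 to 2.04 in the knockout and 1.94 to 3.00 in the control. All 9 had a larger ratio in the control, and the difference between the ratios was not tested. Hspa1a, Hspa1b, Hsph1 and Hspb1 of this list, chosen for heat shock elements above, and Dnajb4 are among the 16 members with the paired units in the promoter window. Dnajb1, Hspa8, Dnajb9 and Hspa5 are not, though a promoter was matched for only 59 of the 74 members. Leaving out both libraries numbered 2 turned the log2 fold change of Hspa1b to 0.08 (adjusted p = 0.917), of Hsph1 to 0.45 (adjusted p = 0.440), of Hsp90aa1 to 0.24 (adjusted p = 0.615) and of Hspa8 to 0.12 (adjusted p = 0.83). In that setting, which had fewer libraries, 0 members passed in either direction. With control 2 alone left out, calls over all tested genes were 304 higher and 92 lower, against 521 and 280 with all 8 libraries.

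**Figure D4:**
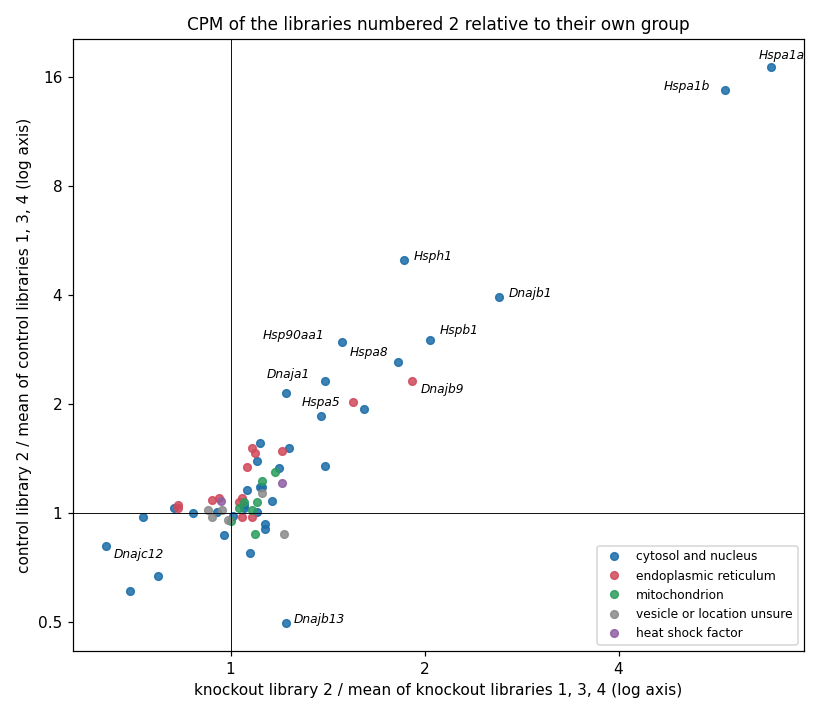
CPM of library 2 divided by the mean of libraries 1, 3 and 4 of its own group, for the knockout (x, log axis) and the control (y, log axis), 1 point per tested member coloured by compartment. Hspa1a and Hspa1b sit at the upper right, with ratios of 5.85 to 6.89 in the knockout and 14.7 to 17.1 in the control, and the mitochondrial members lie close to 1.

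Genes outside the rule with the most similar profile were sought against the mean of the standardised log2 CPM of Hsph1, Dnajb1 and Hsp90aa1 over the 8 libraries, which share the depth and the library-number pattern. The 5 highest Pearson coefficients were those of Mphosph8 (0.988), Cacybp (0.984), Malat1 (0.983), 6430562O15Rik (0.983) and Ubfd1 (0.982). Malat1, a nuclear non-coding RNA, had 220, 261, 207 and 197 CPM in the knockout libraries and 193, 368, 159 and 193 CPM in the control libraries. Cacybp, which encodes a protein that binds calcyclin and ubiquitin ligases, had 30.9, 37.5, 28.2 and 26.1 CPM in the knockout libraries and 27.3, 45.8, 22.7 and 30.3 CPM in the control libraries. Both were highest in library 2 of each group, as the index was. Among the members themselves the coefficient was 0.985 for Hsp90ab1, 0.981 for Hspa1b and 0.976 for Dnaja1, and 0.878 for Dnajb9 and 0.875 for Hspa5 in the ER.

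Genes that work with the members were described by lists. Of 25 co-chaperones of HSP70 and HSP90, 0 rose and 0 fell (median log2 fold change 0.02), and among the lowest adjusted p-values from edgeR were those of Sugt1 (−0.24, adjusted p = 0.0565), Bag1 (0.22, adjusted p = 0.117) and Bag4 (0.24, adjusted p = 0.252). Bag3, an HSF1 target that partners Hspb8, had 47.5, 82.7, 43.6 and 34.2 CPM in the knockout libraries and 42.0, 108, 28.8 and 42.7 CPM in the control libraries, with library 2 highest in each, and was chosen after its values were seen. Of 14 subunits of the cytosolic chaperonin TRiC and of prefoldin, 0 rose and 0 fell (median 0.00). The lowest adjusted p-values there were those of Pfdn4 (0.45, adjusted p = 0.164), Cct4 (−0.19, adjusted p = 0.257), Cct5 (−0.13, adjusted p = 0.359) and Cct2 (0.14, adjusted p = 0.398). Libraries numbered 2 were highest in both groups for 12 of the 25 co-chaperones (48%) and 9 of the 14 subunits (64.3%), against 13.2% of all tested genes.

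In the list of ER folding enzymes and unfolded protein response genes, which includes Hspa5, Hsp90b1, Dnajb9, Dnajb11 and Dnajc3, 2 of 27 rose in the knockout and 0 fell (median 0.03). Of all tested genes, 3.51% were called higher and 1.88% lower. Ero1l, the oxidase that supplies disulfide bonds to PDI, had 34.1, 33.5, 35.4 and 34.4 CPM in the knockout libraries and 22.8, 27.1, 24.8 and 22.5 CPM in the control libraries (log2 fold change 0.50, SE 0.07, adjusted p = 0.00817). Atf6, a sensor of the unfolded protein response, had 139, 142, 152 and 165 CPM in the knockout libraries and 110, 129, 121 and 118 CPM in the control libraries (log2 fold change 0.32, SE 0.08, adjusted p = 0.0433). For both genes the groups did not overlap. Ero1lb, the paralogue of Ero1l, had 175, 192, 175 and 195 CPM in the knockout libraries and 105, 169, 84.5 and 139 CPM in the control libraries, again with no overlap (0.57, adjusted p = 0.123), and with the replicate block it passed (adjusted p = 0.0418), which made 3 of 27 higher. The block also called more of all tested genes higher than the 3.51% called without it. Next came Ern1 (0.29, adjusted p = 0.145 without the block). Libraries numbered 2 were highest in both groups for 19 of these 27 genes (70.4%), against 13.2% of all tested genes.

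Of 14 mitochondrial chaperones and proteases outside the rule, 2 rose and 0 fell (median −0.01), where 3.51% of all tested genes were higher and 1.88% lower. Grpel2, a nucleotide exchange factor of Hspa9, had 62.4, 62.4, 61.9 and 54.8 CPM in the knockout libraries and 43.1, 37.2, 53.2 and 40 CPM in the control libraries (log2 fold change 0.48, SE 0.11, adjusted p = 0.0358). Spg7, a subunit of a protease of the inner membrane, had 70.3, 76.3, 70.6 and 64.5 CPM in the knockout libraries and 57.4, 53.6, 53.6 and 57.1 CPM in the control libraries (log2 fold change 0.35, SE 0.07, adjusted p = 0.0228). Neither gene overlapped between groups, and Hscb (−0.49, adjusted p = 0.160) and Pam16 (0.37, adjusted p = 0.178) came next. Among 9 other heat shock factors and genes tied to HSF1, 0 rose and 0 fell (median 0.08), with Sqstm1 (0.17, adjusted p = 0.253), Hsf4 (−0.24, adjusted p = 0.258) and Mt2 (0.33, adjusted p = 0.713) among the lowest.

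Markers of the liver's cell types were set beside the library pattern. All 8 hepatocyte markers were present, with sums of 86700 to 96600 CPM in the knockout and 73700 to 79800 CPM in the control libraries. Alb made up most of these sums, with 68200 to 75900 CPM in the knockout and 54700 to 62300 CPM in the control libraries. The log2 fold change was above 0 for 4 of the 8 markers, with a median of −0.01. Libraries numbered 2 were highest in both groups for 2 of them. For the 10 Kupffer cell and macrophage markers, summing to 136 to 380 CPM in the knockout and 173 to 239 CPM in the control libraries, the median ratio of library 2 to the others was 0.508 in the knockout and 0.738 in the control. The 9 lymphocyte markers had median ratios of 0.558 in the knockout and 0.523 in the control, with sums of 8.81 to 19.7 CPM in the knockout and 9.09 to 14.5 CPM in the control libraries. The 7 neutrophil markers summed to 0.340 to 51.8 CPM in the knockout and 0.272 to 9.01 CPM in the control libraries. For the 5 of them that were tested, the median ratios were 0.0131 in the knockout and 0.142 in the control. Library 3 was as low for the neutrophil markers, with sums of 0.347 CPM in knockout 3 and 0.272 CPM in control 3. Macrophage and lymphocyte marker sums were lowest in library 2 of each group, and the part of these cells in the result was not tested. Sums of the 9 stellate cell and fibroblast markers were 308 to 483 CPM in the knockout and 256 to 391 CPM in the control libraries, those of the 8 endothelial markers 225 to 324 CPM in the knockout and 226 to 314 CPM in the control libraries, and those of the 8 muscle markers 8.86 to 12.9 CPM in the knockout and 8.71 to 11.6 CPM in the control libraries, with Ckm at 0 in all 8 libraries. The 7 cholangiocyte markers summed to 34.3 to 48.4 CPM in the knockout and 44.7 to 61.4 CPM in the control libraries. Spp1 made up most of these sums, with 22.2 to 38.9 CPM in the knockout and 29.2 to 45.2 CPM in the control libraries. Of the 7, Sox9 passed the test, with 8.09, 3.73, 4.27 and 4.58 CPM in the knockout libraries and 11.5, 14.2, 11 and 10.3 CPM in the control libraries (log2 fold change −1.18, SE 0.23, edgeR adjusted p = 0.0242). The log2 fold change was above 0 for 2 of the 7, the keratins Krt7 (0.20, edgeR adjusted p = 0.775) and Krt19 (0.10, edgeR adjusted p = 0.890). With the replicate block 3 more markers passed. The endothelial Lyve1 was higher (0.72, adjusted p = 0.0231 with and 0.0549 without the block). So was the hepatocyte marker Ttr (0.41, adjusted p = 0.0351 with and 0.0643 without). The lymphocyte marker Cd4 was lower (−0.71, adjusted p = 0.0235 with and 0.449 without). The block also called more of all tested genes in both directions, with 2.52% lower against 1.88% without it.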

How the data were processed

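RNA-seq counts of 8 livers were used. The deposited values are raw counts per gene symbol, with gene lengths, per the file headers. The build was mm10 per the submitters' processing notes, and the aligner, counter, annotation and strand setting are not stated here. In each library 67.4% to 70.8% of counts from 1 to 20 were even, so halved counts served as an alternative. Genes passing filterByExpr (14861 kept, 10378 left out) were normalised by TMM and tested with edgeR 4.0.16 (robust glmQLFit, glmQLFTest, R 4.3.3), after a check on simulated data. SE is the absolute log2 fold change over the square root of F. Alternatives used DESeq2 1.42.0 and limma 3.58.1. Same-numbered libraries deviated together from their group means (r = 0.17, 0.39, 0.31 and 0.40 over genes), so the numbers were taken as pairs, which the labels do not explain. Promoters came from RefSeq (GRCm38.p6) and exons from GENCODE M21, by which 19 of 74 members overlap another gene, 18 on the opposite strand. Promoter windows touching an exon were cut to 30 bases, and the cut windows of Hsph1, Dnaja1, Hspe1 and Hspa5 still touched one. All members may be named, with list genes that passed or had the 4 lowest adjusted p-values and the 5 most similar profiles. Some genes that this rule names are not reported here. The members and lists were chosen with earlier results of these data known.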

Additional observations from a re-analysis of the deposited data

Results flagged for a closer look

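In groups of 4, a library was singled out where its gap to the nearest other made up more of the group's range than Dixon's critical value at 95%. This held for 15 of 132 groups of tested members (11.4%), against 5.90% of 29722 groups of all tested genes, and chance gives about 1 in 20. Of the 15, 5 were knockout 2 and 6 were control 2. Knockout 2 was the highest of its group for Hspa1a (7.04 CPM), Hspa1b (69.8 CPM), Dnajb1 (45.1 CPM), Dnajb4 (55.7 CPM) and the sum of Hspa1a and Hspa1b (76.8 CPM). Control 2 was the highest of its group for Hspa1a (13.2 CPM), Hspa1b (167 CPM), Hsph1 (280 CPM), Dnajb1 (72.2 CPM), Hspb1 (18.5 CPM), Hspd1 (578 CPM) and the same sum (181 CPM). Knockout 2 was the lowest of its group for Dnajc16 (24.9 CPM, against 30 to 30.2 CPM in the other knockout libraries). Knockout 4 was the highest for Dnajc1 (34.0 CPM) and the lowest for Dnajc14 (51.1 CPM). Control 1 was the highest for Dnajc24 (5.31 CPM) and the lowest for Dnajc10 (32.1 CPM, against 36.7 to 37.2 CPM in the other control libraries).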

How the results depend on the processing

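Alternatives were another normalization (RLE or total counts), DESeq2, limma voom with quality weights, no filter or a stricter one (1 CPM in 4 libraries), counts divided by 2, the replicate block, each library left out in turn and, chosen after seeing the data, both libraries numbered 2 left out. The count of members higher in the knockout, 0, was 2 with DESeq2 (Dnajb6 and Hspa2; 1014 of all genes), 1 with the stricter filter (Hspa2; 547 of all genes) and 2 with limma voom (Hsf2 and Hspa2; 830 of all genes). The count lower, 1, was 2 with total counts (Dnajc28 and Dnajc1, −0.27, adjusted p = 0.0443), where 1338 of all genes were lower against 280, 2 with the replicate block (Dnajc28 and Dnajc12) and 0 without both libraries numbered 2. It ranged from 0 to 1 when 1 library was left out, and the count higher stayed at 0 there. Calls over all genes moved in these settings too, to 232 higher and 71 lower without control 1, while 583 were higher without control 3. The cause of these changes was not tested, and the settings that left libraries out also had fewer libraries. Total counts moved the median of all genes to −0.123. Zfp36l1 stayed past the threshold and the sum of Hspa1a and Hspa1b short of it in each setting that gave an adjusted p. The block changed no other call among the members. Of the 65 uncalled members, 36 changed sign in at least 1 of the 17 settings, and 60 of the 66 were called in none. The sum of Hspa1a and Hspa1b ranged from −2.07 to 1.25 when 1 library was left out.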
